A study of Mus musculus with 4 samples.

Results

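Transcripts of 10 genes of fibroblast growth factor (FGF) signalling were followed in mouse brain at embryonic day 13. The genes were the ligands Fgf8, Fgf15, Fgf17 and Fgf18, the receptors Fgfr1, Fgfr2 and Fgfr3, and the Sprouty inhibitors Spry1, Spry2 and Spry4. They were chosen by name, as the ligands, receptors and feedback brakes of one pathway, with Spry1 included as a reported target of Wt1 in kidney. The choice was made with earlier results of these data known. All 10 were listed in both deposited tables, which shared 19500 genes, and all 10 passed the filter on low counts. Poly(A) RNA was sequenced from Wt1_flfl brains, which carry floxed Wt1 alleles (Wt1 fl/fl) and served as the wild-type group, and from Wt1_CKO brains, labelled as a Wt1 conditional knockout. Wt1 encodes a zinc finger transcription factor. Each genotype had 2 libraries, numbered 1 and 2, on a C57BL/6 background. Same-numbered libraries were deposited side by side in 1 table and are called pair 1 and pair 2. The Cre driver, the part of the brain taken, and whether a sample was 1 animal or a pool are not stated in the labels. The p-values therefore measure only the spread between these samples, which may be technical. Since the Wt1 transcript was not analysed here, the labels could not be held against the gene they name.

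FGFs bind tyrosine kinase receptors together with heparan sulfate, and the receptors signal through Ras and the MAP kinases. This signal induces its own inhibitors, among them the Sprouty proteins, which dampen Ras and MAP kinase signalling in a feedback loop. In the embryonic brain, Fgf8, Fgf17 and Fgf18 form a closely related subfamily made at the rostral midline of the telencephalon and at the midbrain-hindbrain boundary, where they pattern the tissue around them. Fgf15 belongs to the endocrine subfamily and is made by neural progenitors, including those of the diencephalon. Fgfr1, Fgfr2 and Fgfr3 are all made in the ventricular zone, where neural progenitors divide.

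The libraries held 16219310 to 17704698 counts each. Ribosomal RNA genes took 0.458% of the counts of Wt1_flfl replicate 1 and 0.0184% to 0.0451% of those of the other 3 libraries. Summed over 9 markers of embryonic neural tissue, among them Sox2, Nes, Pax6, Tubb3 and Dcx, the libraries held 6534 to 6938 CPM (counts per 1000000 counts of the library, after TMM scaling). Of 9 midbrain-hindbrain boundary markers fixed, 6 are given, and the others were not listed in both tables or not analysed here. Wnt1 had 1 to 3 counts per library, Pax5 had 2 to 5 and Pax2 had 2 to 8. Gbx2 had 64 to 163 counts and Otx2 281 to 537. Lmx1b had 39 counts in Wt1_flfl replicate 2 and 1 or 2 in each other library. In such bulk samples, fewer cells of a type and less RNA per cell cannot be told apart.

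No ligand passed the genotype test, and Fgf17 was the ligand whose libraries separated by genotype. Fgf17 (ENSMUSG00000022101, chromosome 14, 70636205 to 70642268, minus strand, GRCm38), which acts in patterning of the frontal cortex and the midbrain, gave 87 and 100 counts in Wt1_flfl replicates 1 and 2, and 61 and 74 counts in the Wt1_CKO replicates. These were 5.42 and 5.84 CPM against 3.43 and 4.30 CPM. Both Wt1_CKO libraries lay below both Wt1_flfl libraries. The fitted log2 fold change of -0.54 had a 95% interval from -1.17 to 0.09 and an SE of 0.263, and the unadjusted p of edgeR's quasi-likelihood test was 0.0800. It was the smallest p among the 10 genes and did not pass, with an adjusted p of 1 over all genes tested. Over 4 libraries and 14537 genes of at least 1 CPM, the pattern most like that of Fgf17 was that of Fadd, with a root mean square difference of 0.0321 in centred log2 CPM. Col14a1 with 0.0330 and Ccdc148 with 0.0400 came next.

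Fgf15 was the most abundant of the 4 ligands. Fgf15 (ENSMUSG00000031073, chromosome 7, 144896531 to 144900953, plus strand) had 33.1 and 46.6 CPM in Wt1_flfl replicates 1 and 2 and 22.6 and 38.7 CPM in Wt1_CKO replicates 1 and 2, from 402 to 798 counts. The genotypes overlapped, since Wt1_CKO replicate 2 lay above Wt1_flfl replicate 1. Its log2 fold change was -0.38 with a 95% interval from -1.05 to 0.29 and an unadjusted edgeR p of 0.219. Within pairs the difference was -0.55 and -0.27. The fit moved to -0.82 without Wt1_CKO replicate 2, to -0.60 without Wt1_flfl replicate 1, to -0.11 without Wt1_flfl replicate 2 and to -0.042 without Wt1_CKO replicate 1. Exons of the antisense gene Gm26793, which had 29 to 59 counts, overlap 24.9% of the exon length of Fgf15. The sources used here do not say that strand was kept, so reads of the overlap cannot be assigned to one strand.

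Fgf8 and Fgf18 were near the lower end of what these libraries could measure. Fgf8 (ENSMUSG00000025219, chromosome 19, 45736798 to 45742915, minus strand), the signal of the telencephalic and isthmic organizers, was counted 5 and 27 times in the Wt1_flfl libraries and 12 and 8 times in the Wt1_CKO libraries. In Wt1_flfl replicate 2 this was 1.58 CPM with an exact 95% Poisson interval from 1.04 to 2.30. In Wt1_flfl replicate 1 it was 0.311 CPM, with an interval from 0.101 to 0.727. These intervals cover counting error only. The difference between the 2 Wt1_flfl libraries thus exceeded counting error, and both Wt1_CKO libraries, at 0.675 and 0.465 CPM, lay between them. The pairs pointed in opposite directions, with log2 differences of 0.89 in pair 1 and -1.54 in pair 2, and the fitted value of -0.73 had a 95% interval from -2.63 to 1.15. Without Wt1_flfl replicate 2 it turned to 0.86. In Wt1_flfl, counts of boundary markers went both ways, and those of Pax2, Pax5 and Wnt1 were too few to give a direction. From replicate 1 to replicate 2, Lmx1b went from 2 to 39 counts, Otx2 from 360 to 537, Pax2 from 5 to 8 and Pax5 from 2 to 5. Gbx2 went the other way, from 163 to 100 counts, as did Wnt1, from 3 to 1. The part of these markers in the Fgf8 values was not tested. The authors' deposited table for pair 2 marks Fgf8 as significant, with an adjusted p of 0.00646 for 1 library against 1 library, and the authors' deposited table for pair 1 does not, with 0.200. Fgf18 (ENSMUSG00000057967, chromosome 11, 33117430 to 33147400, minus strand), known also from skeletal growth and cortical migration, was counted 29 and 24 times in Wt1_flfl, and 34 and 16 times in Wt1_CKO. Its libraries overlapped between genotypes, and the fitted log2 difference of -0.17 had an interval from -1.32 to 0.97. It turned to 0.022 without Wt1_flfl replicate 1 and to 0.25 without Wt1_CKO replicate 2.

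**Figure D1:**
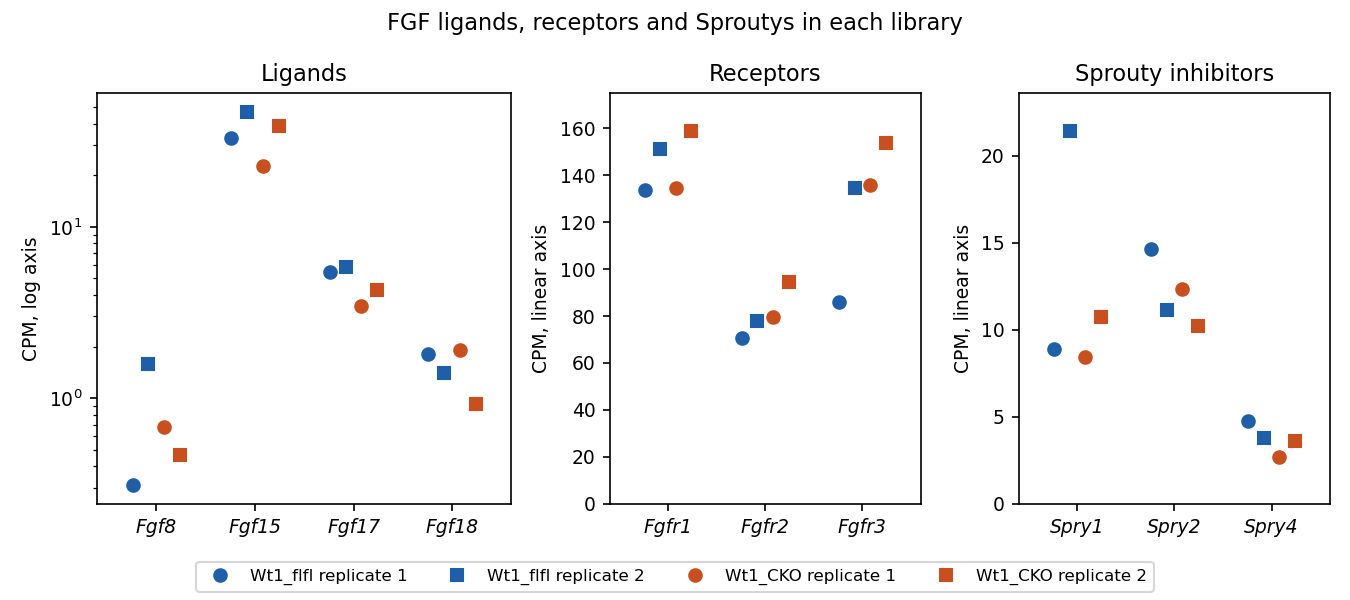
CPM of each gene in each of the 4 libraries, on a log axis for the ligands and on linear axes from 0 for the receptors and the Sproutys; colour gives the genotype and shape the replicate number. Spry1 stands at 21.4 CPM in Wt1_flfl replicate 2 against 8.43 to 10.7 CPM in the other libraries, and Fgfr3 at 86.0 CPM in Wt1_flfl replicate 1 against 135 to 154 CPM.

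No receptor passed the genotype test. Fgfr1 (ENSMUSG00000031565, chromosome 8, 25513654 to 25575718, plus strand), the receptor through which FGF8 acts on the telencephalon, had 134 and 151 CPM in Wt1_flfl and 135 and 159 CPM in Wt1_CKO. These values ran with the replicate number rather than with the genotype. Such a separation by replicate number held for 49.7% of all genes, and Fgfr1 did not pass that test (edgeR adjusted p 0.168). The genotype log2 fold change was 0.04 with a 95% interval from -0.27 to 0.36. This interval was narrow enough to leave out a halving or a doubling, which are -1 and 1 on this scale. Leaving out Wt1_flfl replicate 1 turned the fold change to -0.042, and leaving out Wt1_CKO replicate 2 to -0.081. Fgfr2 (ENSMUSG00000030849, chromosome 7, 130162451 to 133123350, minus strand) is a receptor of radial glia and of early neural patterning. It had 70.8 and 77.7 CPM in Wt1_flfl and 79.5 and 94.5 CPM in Wt1_CKO. Both Wt1_CKO libraries were the higher ones, by a log2 fold change of 0.23 with an interval from -0.08 to 0.53 and an unadjusted edgeR p of 0.120. The fit gave 0.099 without Wt1_CKO replicate 2 and 0.35 without Wt1_CKO replicate 1. The annotated span of Fgfr2 reaches 2961 kb. Fgfr2 shares 314 exon bases, 3.04% of its exon length, with Ctbp2 on the same strand, which had 1318 to 1411 counts.

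Fgfr3 had the largest fitted difference of the receptors, and its size rested on 1 library. Fgfr3 (ENSMUSG00000054252, chromosome 5, 33721674 to 33737068, plus strand), a receptor graded across the cortical ventricular zone, had 86.0 and 135 CPM in Wt1_flfl and 136 and 154 CPM in Wt1_CKO. Wt1_flfl replicate 1, at 1381 counts, stood below the other 3 libraries, at 2305 to 2648 counts. The gap between Wt1_flfl replicate 2 and Wt1_CKO replicate 1 was 134.7 against 135.8 CPM, so the genotypes barely separated. The fitted log2 difference of 0.39 had an SE of 0.210, a 95% interval from -0.11 to 0.89 and an unadjusted edgeR p of 0.108. Without Wt1_flfl replicate 1 it was 0.11 and without Wt1_flfl replicate 2 it was 0.75, neither of which passed. Within pairs it was 0.66 and 0.19. The gene G630022F23Rik, annotated on the other strand with 40 to 52 counts, overlaps 13.9% of the Fgfr3 exon length.

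Of the receptor transcripts per exon length, Fgfr3 made up 37.1% in Wt1_flfl replicate 1 and 45.2% to 47.1% in the other 3 libraries. Fgfr1 made up 41.8% in Wt1_flfl replicate 1 and 33.8% to 36.8% in the others, and Fgfr2 18.1% to 21.2% in all 4. These shares are of the summed level of the 3 receptors per kilobase. In Wt1_flfl replicate 1 Fgfr1 was thus the leading receptor, and in the other libraries Fgfr3 was.

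The Sproutys are feedback inhibitors whose transcripts FGF signalling raises in many tissues. Spry1 (ENSMUSG00000037211, chromosome 3, 37639947 to 37644598, plus strand) was set apart in the choice of genes as a reported Wt1 target in kidney, where it restrains the growth of the ureteric bud. The Wt1_flfl libraries held 143 and 367 counts of Spry1, and the Wt1_CKO libraries 150 and 185. These were 8.90 and 21.4 CPM against 8.43 and 10.7 CPM. Wt1_flfl replicate 2 stood above the other 3 libraries, and its exact 95% Poisson interval of 19.3 to 23.8 CPM did not reach theirs, the highest of which ended at 12.4 CPM. Wt1_flfl replicate 1 lay between the Wt1_CKO libraries. The fitted Spry1 log2 fold change of -0.66 had an SE of 0.401, a 95% interval from -1.62 to 0.29 and an unadjusted edgeR p of 0.144. Within pairs it was -0.08 and -0.99. Without Wt1_flfl replicate 2 the direction turned, to 0.11, and without Wt1_flfl replicate 1 it was -1.16, the largest difference over the alternatives, neither of which passed. The authors' deposited tables give Spry1 an adjusted p of 0.578 in pair 1 and 2.33e-13 in pair 2, and mark it as significant in neither. The gene Gm42922, annotated on the other strand with 1 to 5 counts, overlaps 24.4% of the Spry1 exon length.

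Stretches before the start sites are shown for Spry1, as the reported Wt1 target, and for Spry2 and Fgfr3, as a second Sprouty and a receptor whose levels differed between libraries. Sequences are from RefSeq on GRCm38.p6, 5′ to 3′ on the gene's own strand, and capitals mark matches to GCGNGGGNG on either strand, the letters of a GC-rich element that zinc finger factors of the EGR and WT1 family bind.
Spry1, chr3:37639697-37639946, plus strand: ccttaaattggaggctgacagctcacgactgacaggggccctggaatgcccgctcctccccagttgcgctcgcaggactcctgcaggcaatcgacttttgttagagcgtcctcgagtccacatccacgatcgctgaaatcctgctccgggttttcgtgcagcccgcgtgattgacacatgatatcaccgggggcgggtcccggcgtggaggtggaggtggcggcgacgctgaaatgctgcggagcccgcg
Spry2, chr14:105896820-105897069, minus strand: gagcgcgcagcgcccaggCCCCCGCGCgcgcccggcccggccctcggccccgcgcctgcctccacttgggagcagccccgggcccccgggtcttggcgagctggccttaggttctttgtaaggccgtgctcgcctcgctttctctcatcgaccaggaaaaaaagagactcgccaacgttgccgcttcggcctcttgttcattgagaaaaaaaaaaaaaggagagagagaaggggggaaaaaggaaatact
Fgfr3, chr5:33721474-33721673, plus strand: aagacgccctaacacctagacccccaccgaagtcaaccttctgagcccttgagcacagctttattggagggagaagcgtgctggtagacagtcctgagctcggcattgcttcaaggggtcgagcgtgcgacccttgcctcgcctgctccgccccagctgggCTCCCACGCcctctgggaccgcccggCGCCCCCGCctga
Windows of 250 bases before the start were found for 5 of the 10 genes, Fgfr3 with 2 windows. The stretch of Fgfr3 shown ends 50 bases early, where an annotated exon begins. The Spry1 window held no match, that of Spry2 held 1 and the first Fgfr3 window held 2. In all, 3 of the 6 windows had a match, the third being that of Fgf18, against 10.5% of 32851 windows over all genes. The Ets core CCGGAAGT, searched on both strands, was in 0 of the 6 windows and in 2.88% of all windows. GC content was 62.4% in the Spry1 and Spry2 windows, 66.8% and 72.8% in those of Fgfr3 and 77.2% in that of Fgf18. The Fgfr2 window, without a match, held 44.0%. GC content was not measured over all windows. The letters searched are GC-rich, so the share of 10.5% is not matched for base content, and no enrichment can be read from it. A match is a run of letters and not a measured binding site, and the absence of one says only that these letters are not in the window.

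Of 9 markers of meninges and mesenchyme, 6 were also highest in Wt1_flfl replicate 2, a share that was not counted over all genes. The other 3 were Dcn and Lum, matrix proteoglycans that were highest in Wt1_CKO replicate 1 with 48 and 45 counts, and the mesenchymal factor Twist1, highest in Wt1_CKO replicate 2 with 21 counts. Together the 9 summed to 51.6 and 86.7 CPM in Wt1_flfl and to 51.5 and 51.2 CPM in Wt1_CKO, and none of the 9 was at 0 in any library. Of the 8 tested, 2 were higher in the replicate 2 libraries, Foxd1 and Col1a2 (edgeR adjusted p 0.00552 and 0.0148), against 590 of all 15933 genes tested. Col1a2, a fibrillar collagen chain, was counted 143 and 330 times in Wt1_flfl, and 130 and 175 times in Wt1_CKO. Foxd1, a forkhead gene of stromal and ventral diencephalic cells, had 9 and 97 counts in the Wt1_flfl libraries, with 10 and 22 in Wt1_CKO. Shh, the ventral midline signal, had 55 and 223 counts there, with 71 and 117 in Wt1_CKO. The part of these markers in the Spry1 values was not tested. The 3 genes most like Spry1 over the 4 libraries, among 14537 genes of at least 1 CPM, were Magel2, Tfap2a and Gm29683, with root mean square differences of 0.0608, 0.0715 and 0.0735 in centred log2 CPM.

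Spry2 (ENSMUSG00000022114, chromosome 14, 105891949 to 105896819, minus strand), which inhibits receptor tyrosine kinase signalling downstream of several growth factors, did not stand out in Wt1_flfl replicate 2. It had 14.6 and 11.2 CPM in Wt1_flfl and 12.4 and 10.2 CPM in Wt1_CKO. The libraries overlapped between genotypes, and the fitted log2 difference of -0.19, which was 0.018 without Wt1_flfl replicate 1, had a 95% interval from -0.72 to 0.34. The CPM of Spry1 was 0.609 times that of Spry2 in Wt1_flfl replicate 1, 1.92 times in Wt1_flfl replicate 2, and 0.682 and 1.05 times in Wt1_CKO replicates 1 and 2. Spry4 (ENSMUSG00000024427, chromosome 18, 38586268 to 38601268, minus strand), another inhibitor of Ras activation, had 4.73 and 3.80 CPM in Wt1_flfl and 2.70 and 3.60 CPM in Wt1_CKO. Its libraries separated, with Wt1_CKO lower, though the nearest lay at 3.80 and 3.60 CPM. The log2 fold change of -0.44 had an interval from -1.17 to 0.29 and came mainly from pair 1, with -0.78 against -0.07 in pair 2. Leaving out Wt1_flfl replicate 1 gave -0.27, and leaving out Wt1_CKO replicate 1 or 2 gave -0.24 or -0.66.

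Levels of different genes were compared per kilobase of exon. The receptors Fgfr3 and Fgfr1 and the ligand Fgf15 led, with means over the 4 libraries of 17.8, 14.7 and 11.5 CPM per kilobase. Fgfr2 followed with 7.81, Spry2 with 5.80, Spry1 with 4.26 and Fgf17 with 2.81. Fgf18 with 1.27, Spry4 with 0.780 and Fgf8 with 0.561 came last. Most neighbours in this order overlapped in their ranges over the libraries, and Fgf17 and Fgf18 were the one pair of neighbours that did not, at 2.03 to 3.46 against 0.783 to 1.61 CPM per kilobase. With the longest transcript as length in place of all exons the order was the same, and Fgfr2 was at 18.2 CPM per kilobase, since its exons sum to 10.3 kb and its longest transcript to 4.43 kb.

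**Figure D2:**
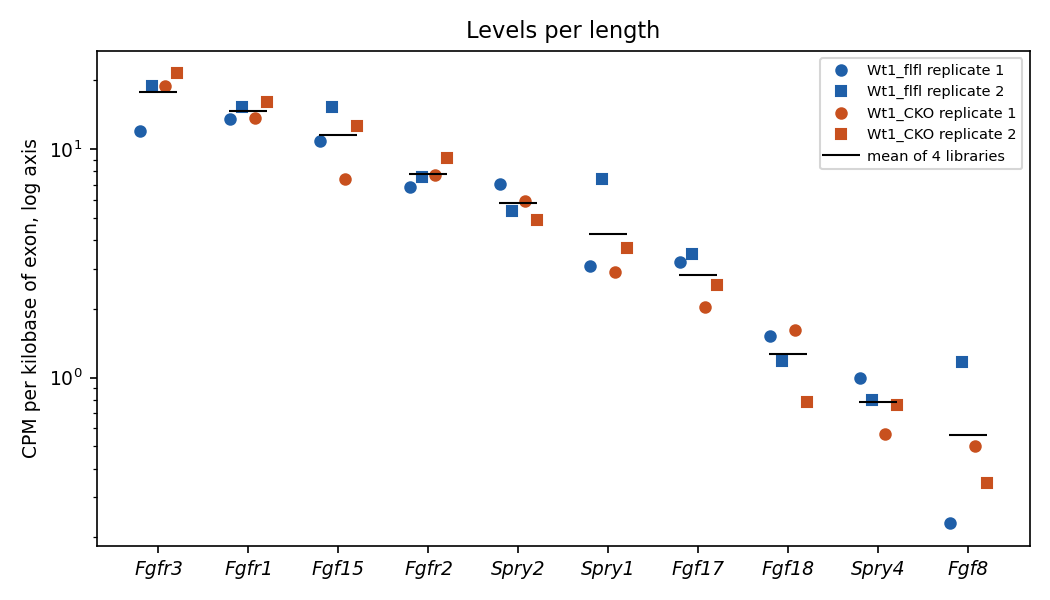
Level per kilobase of exon (CPM per kilobase, log axis) of the 10 genes in order of their mean; points are the 4 libraries, with colour for genotype and shape for replicate number, and bars are the means. The order runs from Fgfr3 at 17.8 to Fgf8 at 0.561 CPM per kilobase, and neighbours overlap except for Fgf17 and Fgf18.

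None of the 10 genes passed the genotype test, in edgeR or under any alternative run. Of 15933 genes tested, 1 passed, which is 0.00628%, and it was not one of the 10. Over all genes 42 passed with the replicate block, 5 with DESeq2, and 73, 29, 3 and 7 without Wt1_flfl replicate 1, Wt1_flfl replicate 2, Wt1_CKO replicate 1 and Wt1_CKO replicate 2 in turn. At an unadjusted edgeR p under 0.05 the count was 0 of the 10 genes, against 1.56% of all genes. The 2 genotypes did not overlap in CPM for 4 of the 10 genes, Fgf17 and Spry4 lower and Fgfr2 and Fgfr3 higher in Wt1_CKO, against 26.9% of all genes. The direction was the same in both pairs for 8 of the 10, against 52.8% of all genes, with 5 lower and 3 higher. The 3 receptors were the higher ones, and Fgf15, Fgf17, Spry1, Spry2 and Spry4 the lower ones. The median log2 fold change was -0.28 over the 10 genes, chosen with earlier results of these data known, and 0.01 over all genes tested. The 95% intervals of all 10 genes held 0, and at 2 libraries per genotype those of the low ligands were wide, that of Fgf8 spanning changes from -2.63 to 1.15.

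**Figure D3:**
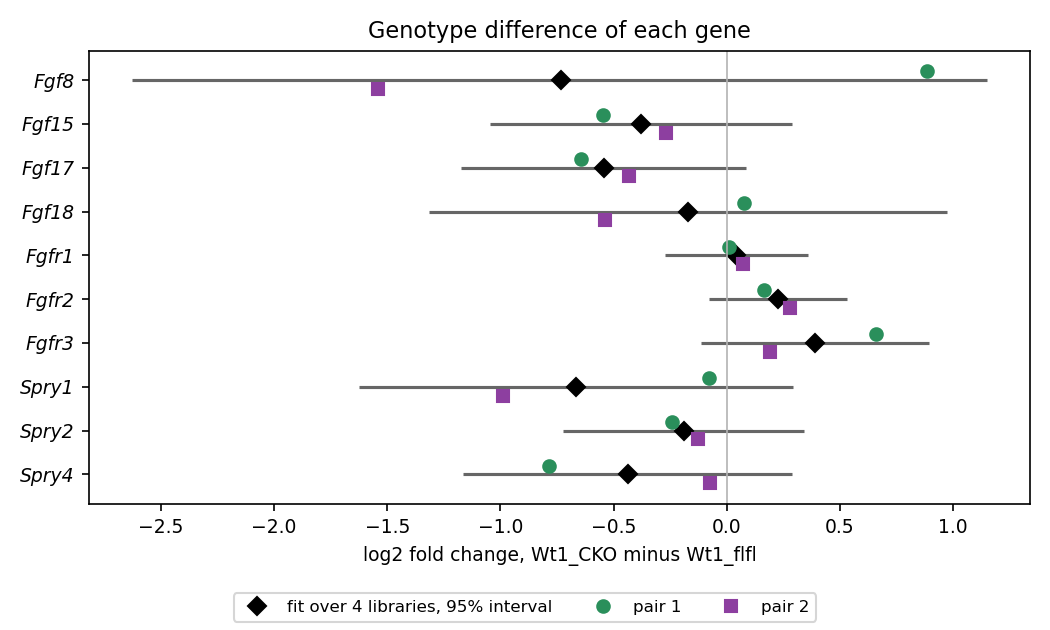
Log2 fold change of Wt1_CKO minus Wt1_flfl for each gene, as the fit over 4 libraries with its 95% interval (diamonds and lines) and within pair 1 (circles) and pair 2 (squares). All 10 intervals cross 0, the 3 receptors lie at or above 0 in both pairs, and Fgf8 and Fgf18 lie on opposite sides in the 2 pairs.

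The libraries numbered 2 differed from those numbered 1 in 3 of the 10 genes. Fgf15, Fgfr3 and Spry1 were higher in the replicate 2 libraries in a fit with genotype and replicate number, against 7.14% of all genes that passed in either direction. Fgf15 was higher by a log2 difference of 0.63 (95% interval 0.38 to 0.89, edgeR adjusted p 0.00351), with 0.49 in Wt1_flfl and 0.77 in Wt1_CKO. Fgfr3 was higher by 0.41 (0.19 to 0.63, edgeR adjusted p 0.0196), with 0.65 and 0.18. Spry1 was higher by 0.82 (0.39 to 1.25, edgeR adjusted p 0.0188), with 1.26 and 0.35. For Fgfr3 and Spry1 most of the difference thus lay within Wt1_flfl, between its libraries at 86.0 and 135 CPM and at 8.90 and 21.4 CPM, though with 1 library per genotype and number that contrast could not be tested. For Fgf15 both replicate 2 libraries lay above both replicate 1 libraries, as they did for Fgfr1 and Spry1, and Fgf18 and Spry2 had both below. These 5 of 10 genes compare with 49.7% of all genes in either direction, with 24.7% of all genes higher and 25.0% lower in the replicate 2 libraries. The 3 calls depended on the test. DESeq2 called none of the 10, with adjusted p of 0.0581 for Fgf15, 0.145 for Fgfr3 and 0.255 for Spry1. With replicate number as the only term none was called, and without Wt1_CKO replicate 2 Fgf15 and Spry1 were.

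Some regional and blood markers also moved with the replicate number. Over all 15933 genes tested, edgeR called 590 higher and 548 lower in the replicate 2 libraries, and DESeq2 called 280 in either direction. Of 9 rostral telencephalic markers, 5 were higher in the replicate 2 libraries and 0 lower, Nkx2-1, Nr2f2, Six3, Shh and Sp9, by edgeR's test. The 9 summed to 1127 and 1361 CPM in Wt1_flfl and to 1007 and 1231 CPM in Wt1_CKO, with none at 0. Nkx2-1, a factor of ventral forebrain and hypothalamus, had 105 and 270 CPM in Wt1_flfl and 103 and 191 CPM in Wt1_CKO. Of 9 erythroid markers, 7 were higher and 1 lower, and their sum was 968 and 1838 CPM in Wt1_flfl and 913 and 1779 CPM in Wt1_CKO. Of the other lists, 1 of 9 neural markers (Nes) was higher, as was Otx2, which marks midbrain and choroid plexus alike, the only call of its 2 lists. In either direction 0 of 8 endothelial, 0 of 6 microglial and 0 of 2 surface epithelial markers passed. The part of these markers in the values of Fgf15, Fgfr3 and Spry1 was not tested. The labels do not say what the replicate number marks.

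**Figure D4:**
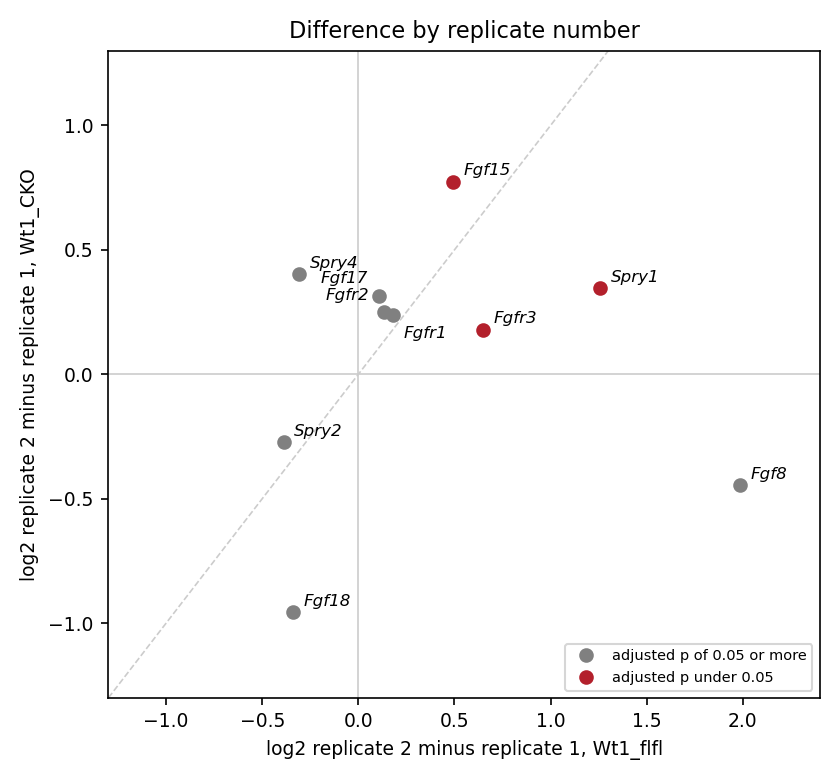
Log2 difference of replicate 2 minus replicate 1 within Wt1_flfl (horizontal axis) and within Wt1_CKO (vertical axis) for the 10 genes, with the dashed line where both are equal. Fgf15 lies at 0.49 and 0.77, Fgfr3 at 0.65 and 0.18 and Spry1 at 1.26 and 0.35, and these 3 passed edgeR's test of the replicate number; Fgf8 lies at 1.98 and -0.44 from few counts.

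Other genes of the pathway, from lists made with earlier results of these data known, also passed no genotype test. Among other FGF ligands 0 of 10 tested genes passed, and 8 of the 18 fixed were not tested or not analysed here. This list also held Fgf11, Fgf12, Fgf13 and Fgf14, intracellular FGF homologous factors rather than secreted ligands. Fgf14, an intracellular FGF homologous factor that acts on sodium channels, averaged 8.50 ± 0.0405 CPM in the Wt1_flfl libraries and 10.3 ± 0.843 in the Wt1_CKO libraries (SD, n = 2 per genotype). This was a log2 fold change of 0.28. Fgf3, a ligand of the ventral diencephalon and inner ear, had 4.64 ± 1.37 and 5.59 ± 1.62 CPM, and Fgf7, of mesenchyme, 2.48 ± 0.452 and 3.12 ± 0.193 CPM (SD, n = 2 each, Wt1_flfl first). Fgf10, a ligand of limb and hypothalamic progenitors, had 12, 8, 13 and 0 counts in Wt1_flfl replicates 1 and 2 and Wt1_CKO replicates 1 and 2. The list had a median log2 fold change of -0.03.

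Of 23 tested co-receptors and heparan sulfate genes 0 passed, and their median was 0.04. Gpc3, a glypican that holds heparan sulfate at the cell surface, was counted 119 and 230 times in Wt1_flfl, and 147 and 108 times in Wt1_CKO, so Wt1_flfl replicate 2 was again the high library. Sdc3, a syndecan of neural tissue, averaged 306 ± 4.04 CPM in the Wt1_flfl libraries and 273 ± 23.6 in the Wt1_CKO libraries (SD, n = 2 per genotype). Flrt3, an adhesion protein that binds FGF receptors, had a log2 fold change of 0.17, and Klb, the co-receptor of endocrine FGFs, had 6 to 13 counts per library.

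The relay below the receptors held 21 genes, all tested, of which 0 passed and 1 had an unadjusted edgeR p under 0.05. That gene was Frs3, an adaptor that docks on FGF receptors, with 18.2 and 16.7 CPM in the Wt1_flfl libraries against 12.5 and 13.4 CPM in the Wt1_CKO libraries. The fitted log2 difference of -0.43 had an SE of 0.172 and an unadjusted edgeR p of 0.0435. Mapk3, the kinase ERK1, averaged 148 ± 1.70 CPM in the Wt1_flfl libraries and 126 ± 5.96 in the Wt1_CKO libraries (SD, n = 2 per genotype). The adaptor gene Gab1 had a log2 fold change of 0.22. The median of the 21 genes was -0.01.

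Transcripts that FGF signalling is known to induce, counted here without the Sproutys, gave no shared direction. Spry1, Spry2 and Spry4 were each lower in Wt1_CKO in both pairs without passing. The log2 difference was only -0.08 for Spry1 in pair 1 and -0.07 for Spry4 in pair 2. Spry1 turned to 0.11 without Wt1_flfl replicate 2, and Spry2 to 0.018 without Wt1_flfl replicate 1. Of 18 tested feedback genes and targets 0 passed, 6 were higher and 4 lower in both pairs, against 27.0% and 25.9% of all genes, and the median was 0.03. Dusp4, a MAP kinase phosphatase, gave 73.2 and 79.6 CPM in the Wt1_flfl libraries against 87.5 and 106 CPM in the Wt1_CKO libraries. The fitted log2 difference of 0.34 had an SE of 0.131 and an unadjusted edgeR p of 0.0366, the smallest in the list. Spred3, a Sprouty-related inhibitor, had a log2 fold change of -0.19, the immediate early gene Ier2 one of -0.27 and the transcription factor gene Myc one of -0.25. Of the best known FGF readouts, named after their values were seen, Dusp6 averaged 20.6 ± 1.59 CPM in the Wt1_flfl libraries and 20.8 ± 0.410 in the Wt1_CKO libraries (SD, n = 2 per genotype). Etv5 stood at 35.9 ± 12.4 and 39.4 ± 3.94 CPM (SD, n = 2) in the same order. The spread of Etv5 within Wt1_flfl, between 44.7 and 27.2 CPM, was larger than the difference of the group means. Etv5 was lower in the replicate 2 libraries by a log2 difference of -0.46 (edgeR adjusted p 0.0388), the opposite direction to Spry1.

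**Figure D5:**
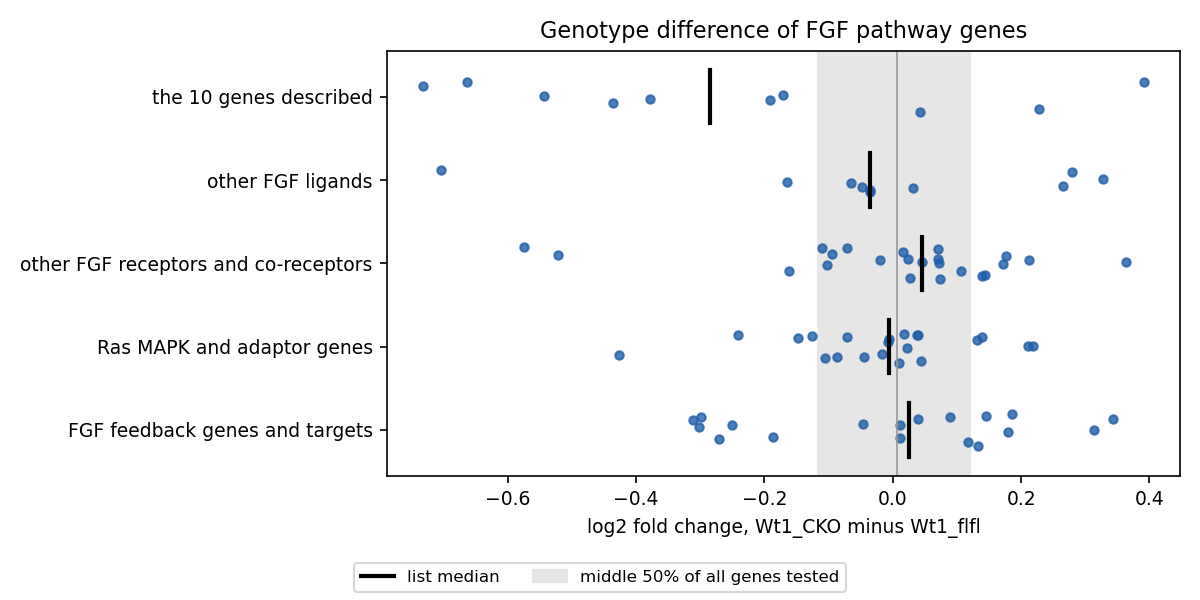
Log2 fold change of Wt1_CKO minus Wt1_flfl of each tested gene of 5 lists (points, spread vertically for view), with the list median as a bar and the middle 50% of all tested genes, from -0.12 to 0.12, shaded. The 10 genes described have a median of -0.28, and the other lists have medians between -0.03 and 0.04. All 5 lists were chosen with earlier results of these data known.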

How the data were processed

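Poly(A) RNA of brain was sequenced in 2 Wt1_flfl and 2 Wt1_CKO libraries. Bowtie2 (2.2.3), TopHat2 (2.0.12) and HTSeq (0.6.0) are named, with mm9 as the build, per the submitters' processing notes. The positions in the tables match GENCODE vM21 on GRCm38 for 7 of the 10 genes exactly, and are given as the tables hold them. The authors deposited whole-number counts per Ensembl gene, CPM of those counts with a count of 0 entered as 0.5 counts, the ratio (fold) of the 2 CPM values, its log2 value, and p-values for each pair, from 1 library per genotype; the sources used here do not name that test. Only the counts entered the tests.

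The 10 genes and all lists were chosen with earlier results of these data known. Genes listed in both tables were filtered with filterByExpr (minimum count 10), scaled by TMM and tested with edgeR 4.0.16 (quasi-likelihood F test) in R 4.3.3, with genotype as the only term, Benjamini-Hochberg adjustment over 15933 genes and a threshold of 0.05. The replicate number was tested in a fit with genotype. SEs and 95% intervals come from the F statistic. Differences within pairs use log2 CPM with a prior count of 2. CPM per kilobase uses the union of GENCODE exons. The test was checked on simulated data with 200 changed genes. For genotype it recovered 57.9% of log2 changes of 1 and 90.6% of those of 2, in either direction, with 13 false calls. Smaller changes were not simulated. The data simulated for genotype held no difference by replicate number, unlike these libraries, so recovery here may differ.

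Named genes were the 10, up to 4 genes of each pathway list by the smallest p, up to 3 of each marker list by the replicate-number p, and the 3 genes most like Spry1 and Fgf17; others were named after their values were seen. Some genes the rule names are not reported here. Alternatives were a replicate block, leaving out each library, DESeq2 1.42.0 and its size factors, limma-voom (limma 3.58.1), no filter and a minimum count of 30. Genes of either table, and replicate number as the only term, were added after the data were seen.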

Additional observations from a re-analysis of the deposited data

How the results depend on the processing

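None of the 10 genes passed the genotype test in edgeR or under its 11 alternatives, and none of the other pathway genes did. The count over all genes was 1 and moved to 42 with the replicate block, to 5 with DESeq2, and to between 3 and 73 without 1 library. Same-numbered libraries deviated together (correlation 0.28 across genes), which with 2 pairs is only a hint that the numbers pair the samples, and the replicate block changed no call among the 10. Directions turned when 1 library was left out for 5 genes. Without Wt1_flfl replicate 1 the log2 fold change was 0.022 for Fgf18, -0.042 for Fgfr1 and 0.018 for Spry2. Leaving out Wt1_flfl replicate 2 gave 0.86 for Fgf8 and 0.11 for Spry1, and leaving out Wt1_CKO replicate 2 gave 0.25 for Fgf18 and -0.081 for Fgfr1. Over the 4 fits that each leave out 1 library, values ran from -1.46 to 0.86 for Fgf8, from -0.78 to 0.25 for Fgf18, from -0.081 to 0.16 for Fgfr1, from -1.16 to 0.11 for Spry1 and from -0.37 to 0.018 for Spry2. The replicate number called 1138 genes, 280 with DESeq2 and 313 as the only term, and as the only term 132 or 440 when Wt1_flfl replicate 1 or 2 was left out and 71 or 940 when Wt1_CKO replicate 1 or 2 was. Its calls among the 10 genes fell from 3 to 0 with DESeq2 and to 0 as the only term, and were 0 to 2 without 1 library. Causes were not tested. Fgf8 was filtered out at a minimum count of 30 and so has no value there. With the longest transcript as length, levels moved to 19.5 for Fgf15, 28.7 for Fgfr1, 18.2 for Fgfr2 and 30.05 for Fgfr3, in CPM per kilobase. Depth limits Fgf8, with 5 to 27 counts, and Fgf18, with 16 to 34.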
